A study of Mus musculus with 14 samples.

Results

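Alkaline phosphatases are zinc enzymes that strip phosphate groups from lipopolysaccharide (LPS), nucleotides and other substrates outside the cell. The intestinal enzyme is held on the brush border of enterocytes by a glycosylphosphatidylinositol (GPI) anchor, where it detoxifies bacterial LPS and acts on dietary phosphate esters and luminal ATP. The 4 mouse genes of the family were examined here, taken from the count table by their gene names among 54532 genes. They were chosen with the levels of these same mice in view, so their WT and IKO values are described without a test. Of the 4 genes, 2 (Alpi and Alppl2) were among the 13846 genes that passed the filter on low counts, while Akp3 and Alpl did not pass it.

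RNA came from mucosa scraped off the ileum of 14 male mice, 7 WT and 7 IKO, with 1 library per mouse. WT mice carried the floxed NCoR1 allele on both chromosomes (NCoR1 flox/flox) without Cre. IKO mice carried the same alleles and a Cre recombinase under the villin promoter, which is active in epithelial cells along the whole intestine, so that the nuclear receptor corepressor NCoR1 was deleted in intestinal epithelial cells (IECs). All 14 mice had been on a high fat diet (HFD) for 15 weeks. The labels give no age or strain. The comparison asks how the alkaline phosphatase genes stood in ileum without epithelial NCoR1.

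Total counts ran from 14749669 to 21557468 per library. Ncor1 stood at 135 ± 31.3 CPM (counts scaled by TMM-adjusted library size, mean ± SD, n = 7) in WT and 50.6 ± 11.0 CPM (SD, n = 7) in IKO mice, with no overlap. The labels call the material IECs. The summed level of 8 enterocyte markers was 23600 to 100700 CPM in WT and 48070 to 92140 CPM in IKO mice, while 6 smooth muscle markers reached 10860 CPM in WT 4 and at most 795.8 CPM in IKO mice. The marker lists of other cell types are given beside Alppl2. IKO 4 had 50.3% and WT 3 had 23.9% of its counts on mitochondrially encoded genes, where the other libraries had 3.49% to 10.3%.

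Alppl2, Alpi and Akp3 lie side by side in that order within 41.2 kb of chromosome 1 (coordinates of the mm10 genome build, with gene ends the same in a GENCODE annotation of that build). Alppl2 (ENSMUSG00000026246), the placental-like or embryonic form, lies on the minus strand at chr1:87086694-87089928. Alpi (ENSMUSG00000079440), the intestinal form, lies on the same strand at chr1:87098002-87101606, with 8073 bases between its span and that of Alppl2. Akp3 (ENSMUSG00000036500), the form known from the duodenum, lies on the plus strand at chr1:87124973-87127912, so that Alpi and Akp3 face away from each other across 23366 bases. Alpl (ENSMUSG00000028766), the tissue-nonspecific form of bone, liver and kidney, stands alone on chromosome 4, at chr4:137741733-137796384 on the minus strand.

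The 250 bases before the start site of each cluster gene are shown 5′ to 3′ on the gene's own strand, because these neighbours with related mRNAs had very different levels in the same mucosa. The sequences are from RefSeq on GRCm38.p6, and capitals mark runs of at least 8 bases that all 3 windows share. The windows are chr1:87089929-87090178 for Alppl2, chr1:87101607-87101856 for Alpi and chr1:87124704-87124953 for Akp3, whose RefSeq start lies 19 bases before the gene's start in the count table.
Alppl2: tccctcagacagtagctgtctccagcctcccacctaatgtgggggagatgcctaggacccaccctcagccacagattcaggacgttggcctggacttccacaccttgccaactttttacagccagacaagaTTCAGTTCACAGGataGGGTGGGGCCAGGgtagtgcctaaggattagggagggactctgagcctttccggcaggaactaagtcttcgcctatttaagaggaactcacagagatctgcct
Alpi: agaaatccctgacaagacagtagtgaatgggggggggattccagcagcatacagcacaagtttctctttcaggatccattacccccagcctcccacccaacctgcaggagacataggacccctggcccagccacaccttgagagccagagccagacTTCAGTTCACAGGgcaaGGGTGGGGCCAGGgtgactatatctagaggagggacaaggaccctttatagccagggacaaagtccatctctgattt
Akp3: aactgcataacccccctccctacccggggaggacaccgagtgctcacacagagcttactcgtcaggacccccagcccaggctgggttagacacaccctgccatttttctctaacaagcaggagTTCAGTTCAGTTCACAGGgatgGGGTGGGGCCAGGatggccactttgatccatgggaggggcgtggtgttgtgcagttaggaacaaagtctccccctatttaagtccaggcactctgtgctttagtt
All 3 windows held TTCAGTTCACAGG followed a few bases later by GGGTGGGGCCAGG. The first run began 119, 94 and 122 bases before the start in Alppl2, Alpi and Akp3, and the second 103, 77 and 105 bases before it. The first run was found in 9 of 32851 promoter windows of this length (0.0274%) and the second in 15 (0.0457%), on either strand. Over the whole windows the letters were at most 55.5% identical between pairs.

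The motifs searched on both strands differed between the cluster genes near their starts. Alpi held TATAAA 33 bases before its start (found in 12.4% of all windows), on the strand opposite to the gene and so printed here as tttata, and a match to the Cdx-type motif TTTATNG (9.81%) overlapped it. Alppl2 and Akp3 did not hold TATAAA but held TATTTAA at 30 and 31 bases, on the gene's own strand (4.18%). The Klf-type motif CCACCC was present in 2 places in Alppl2, 2 in Alpi and 1 in Akp3 (28.1%), and in each gene 1 of these overlapped the second shared run. The exact letters of the nuclear receptor core AGGTCA (14%), a direct repeat of this core with 1 base between (0.0335%) and the Gata-type AGATAA (9.99%) were not found in the 3 windows. Variants of the core were not searched. AGTTCA, which differs from AGGTCA in 1 letter, lies within the first shared run of all 3 windows. CAAAGTC, a core of HNF4-type sites, was found at 19 bases in Alpi and 44 in Akp3 but not in Alppl2 (3.84%). TATTTAA and CAAAGTC were looked for after the windows had been read. These matches are letters only, and binding was not measured.

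The mRNAs of the cluster genes were alike along most of their length. In a global alignment of 1 transcript per gene, Alpi and Akp3 were identical at 82.5% of aligned bases, Alppl2 and Alpi at 79.0% and Alppl2 and Akp3 at 78.3%. Alpl was identical to the others at 64.9% to 66.9%. The longest run shared within the cluster was 68 bases, between Alpi and Akp3, and 0.0% of the 150-base windows of one mRNA occurred in another. How reads that match several genes were counted is not given in the sources used here, so whether the few counts of Alppl2, Akp3 and Alpl include or lack reads of a related gene such as Alpi was not tested. The pseudogene Akp-ps1, also in the cluster, had 19 counts over all WT and 5 over all IKO mice.

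Alpi was by far the most abundant of the 4 mRNAs in every mouse. Per length it stood at 406 ± 227 FPKM (fragments per kilobase of gene length, scaled by depth, SD, n = 7) in WT and 303.7 ± 118.3 FPKM (SD, n = 7) in IKO mice. Alppl2 followed at 1.5 ± 0.6313 FPKM in WT and 0.367 ± 0.1275 FPKM in IKO mice. Akp3 was at 0.2115 ± 0.1846 FPKM in WT and 0.1896 ± 0.1797 FPKM in IKO mice, and Alpl at 0.1459 ± 0.0975 and 0.0969 ± 0.0971 FPKM. In WT mice the lowest Alppl2 level (0.6961 FPKM) was above the highest Akp3 level (0.4409 FPKM), while in IKO mice Alppl2 and Akp3 overlapped. Akp3 and Alpl overlapped in both genotypes. Alpi made up 98.8% to 99.9% of the summed FPKM of the family in each mouse. Among the genes tested it ranked 60 to 217 by FPKM in WT mice (median 97) and 140 to 597 in IKO mice (median 164).

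**Figure D1:**
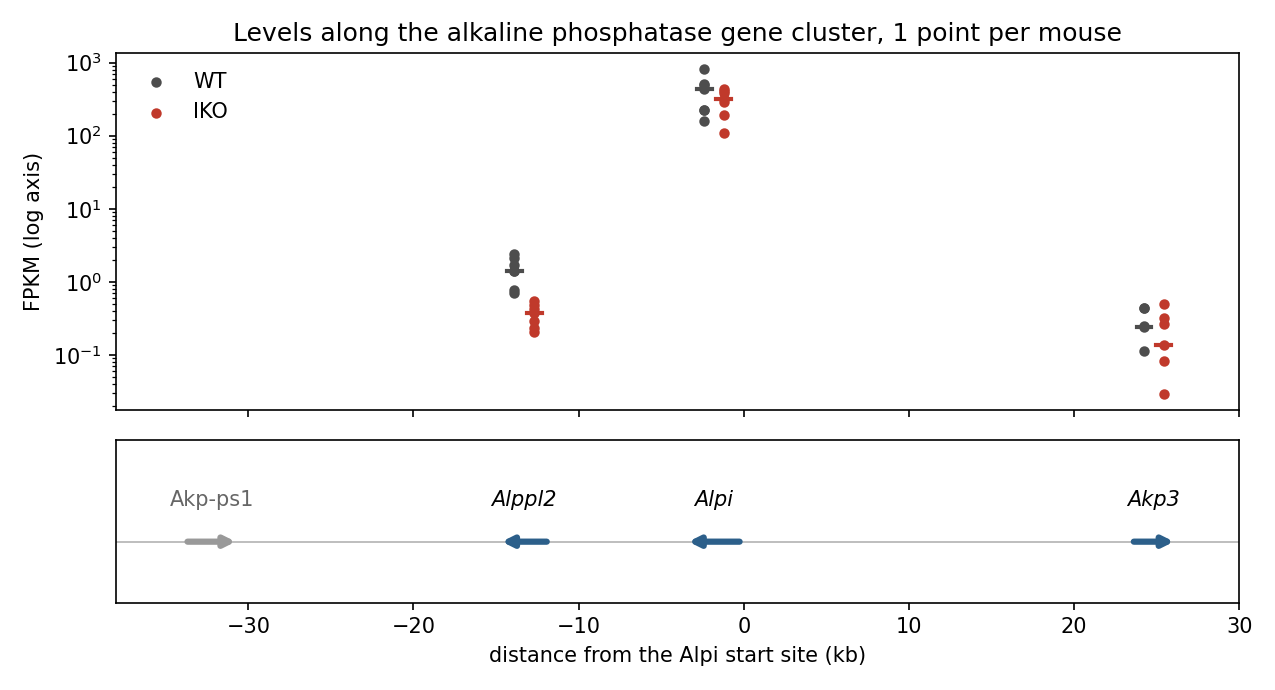
FPKM (log axis) of the 3 genes of the chromosome 1 cluster, 1 point per mouse with the median as a bar, above a map of the genes in kb from the Alpi start site, where arrows give the strand and Akp-ps1 is a pseudogene. Alpi lies at 108.1 to 809.4 FPKM, Alppl2 at 0.205 to 2.399 FPKM and Akp3 at 0 to 0.4994 FPKM, and the 3 mice with Akp3 at 0 have no point on the log axis.

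Alpi was lower on average in IKO mice, with groups that overlapped. In WT mice its level was 382.8 CPM at the lowest, 1051 CPM at the median and 1940 CPM at the highest. In IKO mice it was 249.2 CPM at the lowest, 747.2 CPM at the median and 986.6 CPM at the highest. WT 2, WT 4, WT 5 and WT 6 stood above every IKO mouse, WT 1, WT 3 and WT 7 lay inside the IKO range, and all 7 IKO mice lay below the WT median. The means were 968.9 ± 540.8 CPM (SD, n = 7) and 707.7 ± 273.4 CPM (SD, n = 7), and the log2 fold change of IKO against WT was -0.45 (standard error 0.37). Without WT 2, the mouse with the most Alpi, it was -0.19. The spread within a genotype was large, at 5.07 times from the lowest to the highest WT mouse and 3.96 times among IKO mice. Counts of Alpi ran from 2280 to 30111 per library, so that counting error was small beside this spread. In mucosa, fewer cells that make a transcript and less of it per cell cannot be told apart.

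Alppl2 was low in all mice and lower in IKO mice without overlap. In WT mice its level was 1.611 CPM at the lowest, 3.268 CPM at the median and 5.495 CPM at the highest. In IKO mice it was 0.4677 CPM at the lowest, 0.8432 CPM at the median and 1.202 CPM at the highest. The highest IKO mouse (IKO 4) thus stayed below the lowest WT mouse (WT 2). The means were 3.457 ± 1.435 CPM (SD, n = 7) and 0.824 ± 0.2806 CPM (SD, n = 7), with a log2 fold change of -2.07 (standard error 0.34), or 4.2-fold lower. Of all 13846 genes tested, 1.26% had every IKO mouse below every WT mouse in CPM. Nothing is read from that share here, since Alppl2 was chosen on this contrast and passed the filter through the WT mice. Its counts were 25 to 105 per WT library and 8 to 21 per IKO library, 497 and 92 in all. The long noncoding RNA Gm29371, annotated on the other strand across Alppl2, had 0 counts. Whether strand was used in counting is not given in the sources used here, so reads from the other strand cannot be told apart from Alppl2. Without WT 3, WT 4 and IKO 4, the libraries with a high mitochondrial share or much smooth muscle RNA, the log2 fold change of Alppl2 was -2.26 and that of Alpi -0.41.

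Markers of several other cell types were also lower in IKO mice on average. All 6 smooth muscle markers had a log2 fold change below 0 (median -3.10, summed level 5.08 to 10860 CPM in WT and 4.53 to 795.8 CPM in IKO mice), as did 5 of 5 fibroblast markers tested (median -2.0, 6.28 to 354 CPM and 8.32 to 44.66 CPM). The same held for 6 of 6 markers of stem and dividing cells (median -1.04, 120.7 to 350.6 CPM and 85.8 to 220 CPM) and 6 of 6 tuft cell markers (median -0.83, 37.94 to 93.67 CPM and 19.27 to 48.26 CPM). Of these, 1 tuft cell marker was called by edgeR. At an unadjusted p under 0.05 in edgeR, 4 of 5 fibroblast, 4 of 6 stem and dividing, 4 of 6 tuft and 0 of 6 smooth muscle markers were lower. Goblet markers were higher for 5 of 6 (median 0.15) and Paneth markers for 4 of 6 (median 0.24). Lower were 5 of 6 B and plasma cell (median -1.10), 5 of 6 macrophage and dendritic (-0.45) and 3 of 4 endothelial markers (-0.73). The same was so for 4 of 6 enteroendocrine (-0.08) and 4 of 6 T cell markers (-0.18). At an unadjusted p under 0.05 in edgeR, 2 of 4 endothelial and 2 of 6 B and plasma cell markers were lower. So were 1 of 6 macrophage and dendritic and 1 of 6 enteroendocrine markers, while 2 of 6 T cell and 1 of 6 goblet markers were higher. No neutrophil marker passed the filter. The summed levels overlapped between genotypes for each of these lists, and their part in the lower Alppl2 was not tested.

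**Figure D2:**
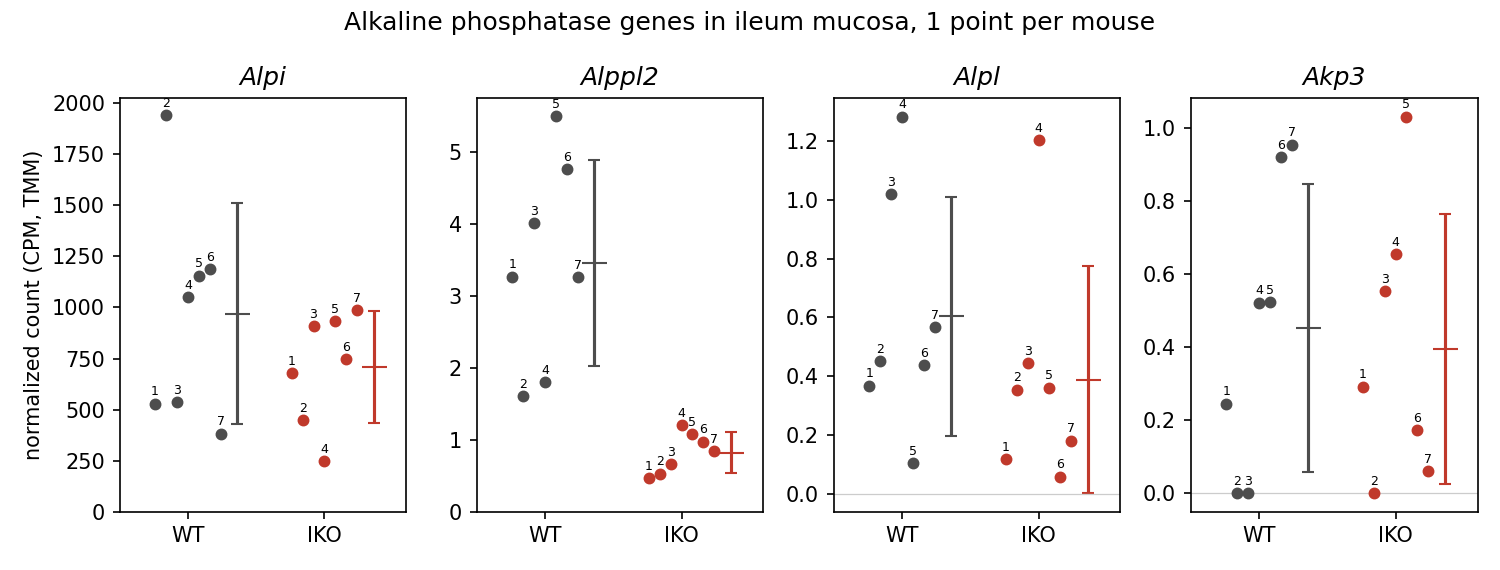
Normalized count (CPM) of Alpi, Alppl2, Alpl and Akp3 in each WT and IKO mouse, with mouse numbers beside the points and the mean ± SD (n = 7) as bars, on a separate linear axis for each gene. Alppl2 does not overlap between genotypes (WT from 1.611 CPM, IKO up to 1.202 CPM), while the other 3 genes do.

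Alpl and Akp3 were at the limit of detection. Alpl had 2 to 27 counts per WT library and 1 to 11 per IKO library, or 0.604 ± 0.4063 CPM (SD, n = 7) and 0.388 ± 0.386 CPM (SD, n = 7). WT 4 (1.282 CPM) and IKO 4 (1.202 CPM) had the most Alpl, and the groups overlapped. WT 4 also had the most smooth muscle marker RNA and IKO 4 the highest mitochondrial share, and the part of either in the Alpl level was not tested. In a fit without the filter the log2 fold change of Alpl was -0.66 (standard error 0.64), and -1.18 without IKO 4.

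Akp3 had 73 counts over the 7 WT and 45 over the 7 IKO libraries. WT 2, WT 3 and IKO 2 had 0 counts, which allows up to 0.193, 0.204 and 0.177 CPM (3 counts, counting error only). The levels were 0.4526 ± 0.3949 CPM (SD, n = 7) in WT and 0.3952 ± 0.3713 CPM (SD, n = 7) in IKO mice, and the groups overlapped from end to end. The log2 fold change without the filter was -0.22 (standard error 0.88) and turned to 0.10 without WT 7. A difference in Akp3 was not detectable at this depth.

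Alpi and Alppl2, neighbours on the same strand, showed no relation that the tests could detect among mice of 1 genotype. With 7 mice per genotype and 25 to 105 Alppl2 counts per WT and 8 to 21 per IKO library, a relation could be missed. In WT mice Pearson's r of log2 CPM was -0.316 (exact permutation p = 0.477, 0.77 after adjustment over 2 relations) and Spearman's rho was 0.0 (exact permutation p = 1.0, adjusted 1.0). In IKO mice r was -0.162 (exact permutation p = 0.77, adjusted 0.77) and rho was 0.036 (exact permutation p = 0.963, adjusted 1.0). Without the 2 mice farthest from the median of Alpi, r was -0.445 in WT (exact permutation p = 0.55) and 0.54 in IKO mice (exact permutation p = 0.35). WT 2, with the most Alpi of all mice, had the least Alppl2 of the WT mice, and IKO 4, with the least Alpi, had the most Alppl2 of the IKO mice.

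The balance between these genes varied widely among WT mice, and among IKO mice mainly through IKO 4. The IKO ratios rest on 8 to 21 Alppl2 counts per library, and a difference in spread between genotypes was not tested. Alppl2 counts per 1000 Alpi counts were 0.83 at the lowest, 4.76 at the median and 8.5 at the highest in WT mice. They were 0.689 at the lowest, 1.16 at the median and 4.82 at the highest in IKO mice. WT 2 (0.83) and WT 4 (1.72) fell within the range of the IKO mice, and IKO 4 (4.82, on 11 Alppl2 counts) within that of the WT mice. The other 6 IKO mice lay between 0.689 and 1.31, a range that holds WT 2 but not WT 4. From the summed counts, the ratio was 3.81 in WT and 1.08 in IKO mice.

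The pattern of Alpi among mice of 1 genotype was set beside that of all well-counted genes. The 4 genes most like it over 14 mice, by Pearson's r of log2 CPM after subtracting the genotype means among 11268 genes, were Slc5a11 (0.96), Sidt2 (0.957), Cyp2d22 (0.956) and Tm6sf2 (0.954). Slc5a11 encodes a sodium-coupled inositol transporter and Tm6sf2 a protein of lipoprotein lipidation. The IKO against WT log2 fold change was -0.87 for Slc5a11 (edgeR adjusted p = 0.0969) and 0.17 for Sidt2 (edgeR adjusted p = 0.69). Alppl2 had lower maxima, with Akirin1 (0.87), Thtpa (0.849), Gm6560 (0.847) and Pstpip2 (0.842) among 11269 genes. The part of its low counts in these lower values was not tested. The points are the same 14 libraries for every gene, so shared library composition enters these values.

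Since 8 enterocyte markers differed so much in their sum between mice of 1 genotype, Alpi was also set against that sum, a scale chosen after seeing the data. Alpi per 1000 CPM of enterocyte markers was 11.9 at the lowest, 16.2 at the median and 19.3 at the highest in WT mice. In IKO mice it was 5.18 at the lowest, 8.96 at the median and 11.4 at the highest. On this scale the groups did not overlap, and the difference of the mean log2 values was -0.88, against a log2 fold change of -0.45 in CPM. The coefficient of variation was 14.2% among WT and 25.4% among IKO mice, against 55.8% and 38.6% for Alpi in CPM. Of all genes tested, 2.6% had every IKO mouse below every WT mouse per enterocyte marker CPM, and nothing is read from that share for Alpi. Of the 8 markers, 0 passed edgeR's test between genotypes (adjusted p from 0.164 to 0.831), and 1 had an unadjusted p under 0.05. Their log2 fold changes were above 0 for 7 of 8 (median 0.37, Anpep 0.70), so the sum itself enters the lower ratio in IKO mice. Fabp2 made up 21.1% to 49.3% of the sum in a mouse, Apoa1 19.0% to 41.2% and Anpep 9.13% to 25.2%. The paper places Fabp2 among the genes under PPARα regulation in the ileum of IKO mice.

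The separation on this scale depended on the markers used. It held when 6 of the 8 markers were left out in turn, but the groups overlapped without Anpep (IKO up to 15.3, WT from 14.5) and without Apoa1 (IKO up to 17.2, WT from 15.3), where the coefficient of variation among WT mice was 25.8%. Set against single markers, Alpi overlapped between genotypes for each of the 8. Set against 17 genes of brush border structure it also overlapped, at 29.7 to 83.2 per 1000 CPM in WT and 10.1 to 43.4 in IKO mice, with a coefficient of variation of 33.7% among WT mice. Alppl2 per 1000 CPM of enterocyte markers was 0.016 to 0.138 in WT and 0.00587 to 0.025 in IKO mice, and overlapped.

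**Figure D3:**
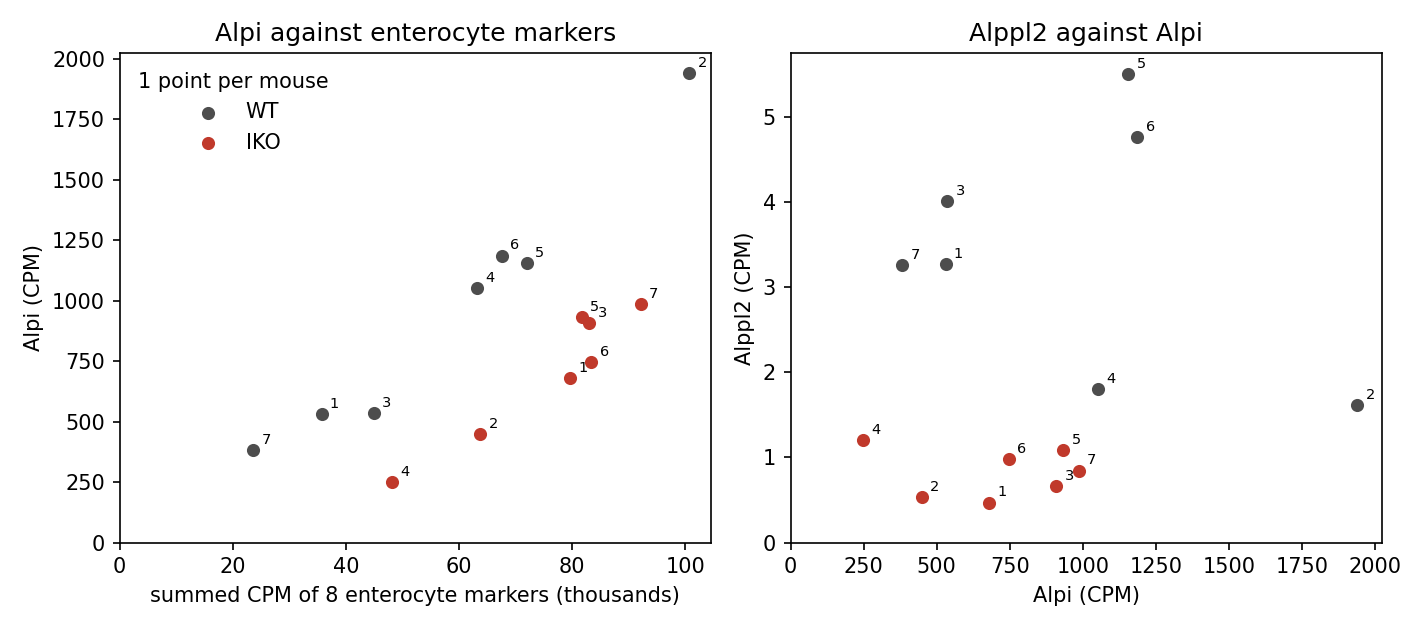
Left, Alpi (CPM) against the summed CPM of 8 enterocyte markers, and right, Alppl2 (CPM) against Alpi (CPM), 1 numbered point per mouse. On the left the WT mice lie above the IKO mice at a given marker sum (11.9 to 19.3 against 5.18 to 11.4 Alpi CPM per 1000 marker CPM), and on the right WT 2 and IKO 4 mark the ends of the Alpi axis.

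Alpi was 1 of several abundant brush border enzymes. Among 19 brush border hydrolases Alpi included, it ranked 7 by mean FPKM in WT and 9 in IKO mice, ahead of the maltase-glucoamylase Mgam (366 FPKM) in WT. Of 17 other hydrolases tested, 0 were called by edgeR, 0 by DESeq2 and 0 at an unadjusted p under 0.05 in edgeR, with a median log2 fold change of 0.06, against -0.09 over all genes tested. Anpep, aminopeptidase N, was at 8360 ± 2700 CPM (SD, n = 7) in WT and 13600 ± 5760 CPM (SD, n = 7) in IKO mice (log2 fold change 0.70, adjusted p = 0.183 by edgeR). Lct, the lactase of the suckling and proximal gut, was at 799 ± 590 and 398 ± 225 CPM (log2 fold change -1.01, adjusted p = 0.254 by edgeR).

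Over the whole table, 8.67% of the genes tested were called at an adjusted p under 0.05, 4.38% higher and 4.28% lower in IKO mice. Of 187 genes in 12 lists written around the enzyme, its anchor, substrates, regulators and place in the gut, 167 were tested and 12 were called (7.19%), all of them higher. At an unadjusted p under 0.05, 27 were higher and 9 lower. Values for these lists are the mean CPM ± SD of WT and then of IKO mice (n = 7 each), and the adjusted p come from edgeR with genotype as the term, corrected by Benjamini-Hochberg over all genes tested.

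The GPI anchor is built and attached by a chain of enzymes in the endoplasmic reticulum. Of 29 genes tested, 0 were called by edgeR, 1 by DESeq2 and 2 at an unadjusted p under 0.05 in edgeR, and the median log2 fold change was -0.02. The 2 most abundant were both parts of the GPI transamidase, Pigt (76.6 ± 20.3 and 101 ± 43.6 CPM, log2 fold change 0.41, adjusted p = 0.382) and Gpaa1 (46.1 ± 4.44 and 46.2 ± 10.9 CPM, log2 fold change 0.00, adjusted p = 0.991). Gpld1, a phospholipase that can cut GPI anchors, was at 1.67 CPM in WT and 1.49 CPM in IKO mice (adjusted p = 0.839).

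The microvillus scaffold on which the enzyme sits had 2 of 17 genes called, both higher, and a median log2 fold change of 0.44. Baiap2l1, an actin-binding protein of the brush border, rose from 76.1 ± 14.6 to 156 ± 10.8 CPM (log2 fold change 1.03, adjusted p = 0.000981) with no overlap. Slc9a3r1, the scaffold NHERF1, rose from 1900 ± 594 to 3300 ± 510 CPM (log2 fold change 0.80, adjusted p = 0.0485), also without overlap. Its call was lost in 16 of 23 alternatives, among them each omission of 1 mouse except that of WT 2 (adjusted p from 0.0521 without WT 5 to 0.0933 without IKO 5).

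Among 18 transcription factors listed as known or likely regulators of intestinal alkaline phosphatase, 1 was called, and the median log2 fold change was 0.18. Ppara, the lipid-sensing nuclear receptor, rose from 20 ± 10.3 to 58.7 ± 31.3 CPM (log2 fold change 1.55, adjusted p = 0.0285). Without WT 7, IKO 3 or IKO 4 its adjusted p was 0.0607, 0.0525 and 0.0521. It was 0.0856 with a replicate block and 0.0978 without WT 3, WT 4 and IKO 4 together. Klf4, known to activate the intestinal promoter, was at 317 ± 124 and 455 ± 127 CPM (adjusted p = 0.187). The intestinal homeobox factors Cdx1 and Cdx2 had log2 fold changes of 0.27 (adjusted p = 0.401) and 0.16 (adjusted p = 0.523). Zfp148, the zinc finger protein ZBP-89, had -0.36 (adjusted p = 0.278). Thyroid hormone receptors Thra and Thrb had -0.02 (adjusted p = 0.956) and -0.45 (adjusted p = 0.129), and Hnf4a, which keeps enterocytes mature, had 0.47 (adjusted p = 0.107, and 0.0322 by DESeq2).

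The list of genes that sense the substrate LPS or signal beneath its receptors held the most calls. Of 15 tested, 4 were called higher and 0 lower, against 4.38% and 4.28% of all genes tested. In direction 8 were above 0 and 7 below, with a median log2 fold change of 0.16. The calls fell to 2 without the filter and 1 with a replicate block, and rose to 6 with DESeq2. Lbp, which passes LPS to CD14, stood at 1.05 ± 0.507 CPM in WT and 3.01 ± 1.24 CPM in IKO mice (log2 fold change 1.52, adjusted p = 0.023). Cd14 itself rose from 5.27 ± 1.17 to 8.96 ± 1.84 CPM (log2 fold change 0.77, adjusted p = 0.0328). Irak4, a kinase beneath the Toll-like receptors, rose from 35.9 ± 7.11 to 59.1 ± 4.5 CPM (log2 fold change 0.72, adjusted p = 0.00839) with no overlap, and Nfkbia, the inhibitor of NF-κB, from 65.0 ± 11.8 to 101 ± 15.8 CPM (log2 fold change 0.63, adjusted p = 0.0194). Lbp lost its call without WT 7 (0.0532), IKO 1 (0.0508) or IKO 5 (0.06), without the filter (0.0618) and with a replicate block (0.0532). Cd14 lost it without WT 1 (0.0513), WT 3 (0.0547), IKO 1 (0.0637), IKO 2 (0.0535), IKO 3 (0.0548) or IKO 5 (0.0779). Cd14 also lost it without the filter (0.0849) and with the block (0.11), and Nfkbia with the block (0.0677). Ly96, the partner of TLR4, was at 2.89 CPM in WT and 2.85 CPM in IKO mice and was not called. Tlr4 itself did not pass the filter on low counts.

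Other enzymes that act on nucleotides outside the cell share substrates with alkaline phosphatase. Of 15 ectonucleotidases and related genes tested, 0 were called by edgeR, 2 by DESeq2 and 3 at an unadjusted p under 0.05 in edgeR. Ada, adenosine deaminase, was at 495 ± 445 and 973 ± 232 CPM (log2 fold change 0.97, adjusted p = 0.14, and 0.0157 without WT 2), and Entpd5 at 167 ± 51.8 and 236 ± 93.2 CPM (adjusted p = 0.275). Of the 3 genes at an unadjusted p under 0.05, 2 were lower. The largest log2 fold change of the list was -2.43 for Enpp2 (4.34 CPM in WT and 0.787 CPM in IKO mice, adjusted p = 0.0675), which makes lysophosphatidic acid and was named after its values were seen.

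The phosphate that the enzyme sets free is taken up by sodium-coupled carriers. Of 13 genes of phosphate transport tested, 1 was called, and the median log2 fold change was -0.15. Slc34a2, the main apical carrier (NaPi-IIb), rose from 399 ± 99.5 to 1350 ± 718 CPM (log2 fold change 1.76, standard error 0.41, adjusted p = 0.0182). Its call was lost in 3 of 23 alternatives. The adjusted p was 0.0593 with limma on log2(FPKM + 1), 0.0601 with limma on log2(FPKM + 0.1) and 0.119 in edgeR with a replicate block. Slc20a1 and Slc20a2, carriers of the second type, had log2 fold changes of -0.51 (adjusted p = 0.193) and -0.15 (adjusted p = 0.762).

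Genes that mark position along the gut and along the villus were listed because alkaline phosphatases differ along both. Of 8 proximal genes tested, 2 were called higher in IKO mice, against 4.38% of all genes tested. In direction 5 were above 0 and 3 below, with a median log2 fold change of 0.24. Among those below, Lct had -1.01 and Npc1l1 -0.075. A shift in position along the gut was not tested. Fabp1, the liver-type fatty acid binding protein, rose from 802 ± 611 to 3610 ± 2300 CPM (log2 fold change 2.17, adjusted p = 0.0277). The paper reports it as a PPARα target that was higher in IKO ileum. Its call was lost without WT 4 (0.05), IKO 1 (0.0573) or IKO 2 (0.0559). It was also lost with a replicate block (0.0527) and without WT 3, WT 4 and IKO 4 together (0.0978). Adh6a rose from 177 ± 131 to 765 ± 291 CPM (log2 fold change 2.11, adjusted p = 0.0193). Its call was lost with the block (0.0506) and without those 3 libraries (0.0852). Of 7 distal genes tested, 0 were called by edgeR, 1 by DESeq2 and 1 at an unadjusted p under 0.05 in edgeR. In direction 4 of the distal genes were above 0 and 3 below, from -1.75 to 1.08, with a median log2 fold change of 0.36. Fabp6, the ileal bile acid binding protein and 1 of those below 0, was at 2810 ± 2700 CPM in WT and 2050 ± 2140 CPM in IKO mice (adjusted p = 0.772). Of 11 villus tip genes tested, 0 were called by edgeR, 2 by DESeq2 and 4 at an unadjusted p under 0.05 in edgeR, with Krt20 at 2870 ± 992 and 4150 ± 750 CPM (adjusted p = 0.164). Of 10 villus base genes tested, 1 was called, the glutathione transferase Gsta1, which rose from 31.2 ± 16.2 to 125 ± 96.2 CPM (log2 fold change 2.01, adjusted p = 0.0132). Without WT 3, WT 4 and IKO 4 together its adjusted p was 0.0547.

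**Figure D4:**
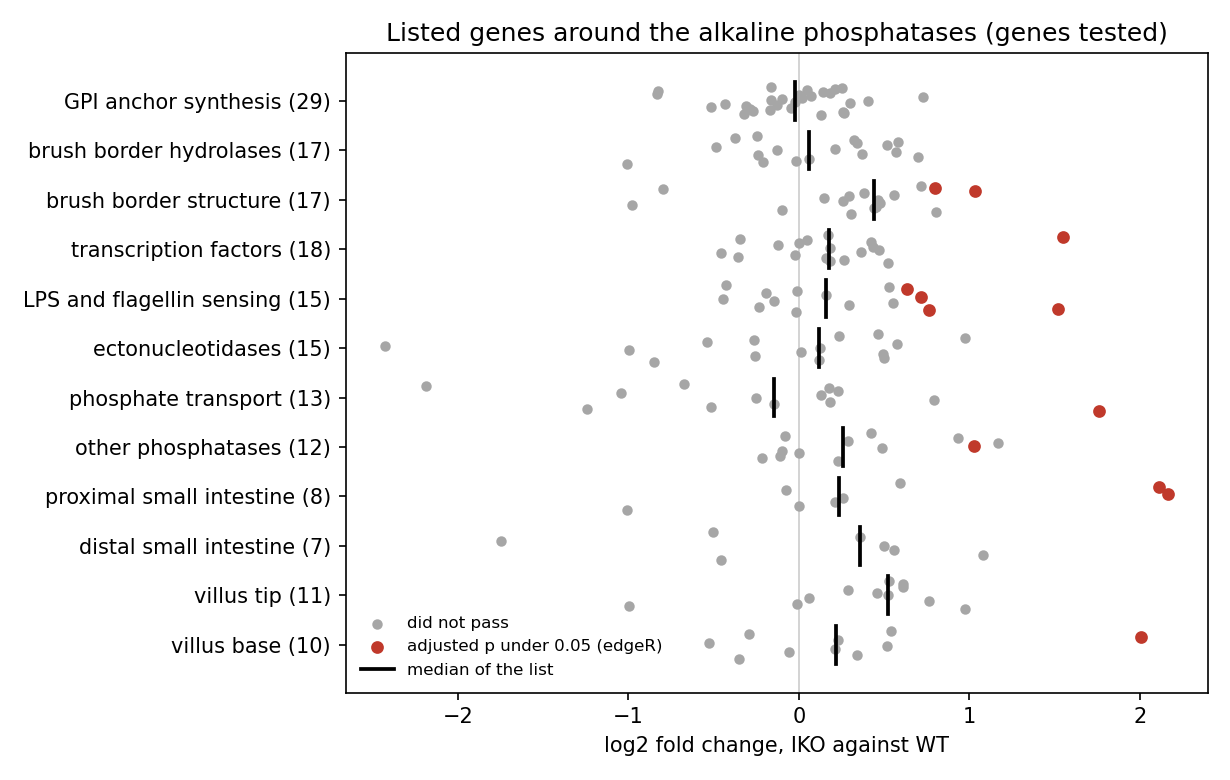
Log2 fold change of IKO against WT for the tested genes of 12 lists, 1 point per gene, with the number tested in parentheses, the median of each list as a bar and genes at an adjusted p under 0.05 (edgeR) in red. All 12 genes called lie to the right of 0, and the list medians run from -0.15 for phosphate transport to 0.52 for the villus tip.

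Genes beside the family were also compared. Within 250 kb of the cluster the table held 20 other genes, of which 5 had 0 counts in all mice and 3 were tested. These were Gm6136 (log2 fold change 0.34, adjusted p = 0.414), Eif4e2, a cap-binding protein (0.44, adjusted p = 0.114), and Efhd1 (0.52, adjusted p = 0.434). Of these, 0 were called by edgeR or DESeq2, and Eif4e2 had an unadjusted p under 0.05. Within 250 kb of Alpl, 3 of 7 genes were tested and 1 was called, Usp48, a deubiquitinase, at 37.6 ± 6.97 and 26.5 ± 3.48 CPM (log2 fold change -0.51, adjusted p = 0.0401). The call of Usp48 was lost in 14 of 23 alternatives, including without WT 2, WT 3, WT 4, WT 7, IKO 1, IKO 2, IKO 4, IKO 5 or IKO 7 (adjusted p from 0.0541 to 0.0862). Rap1gap and Ece1 had adjusted p = 0.756 and 0.623.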

How the data were processed

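Per the submitters' processing notes, the authors aligned 150-base paired reads with HISAT2 2.0.5 to mm10 and counted them per gene with featureCounts 1.5.0-p3. The deposited table gives raw counts for 54532 genes in 7 WT and 7 IKO mice. The deposited FPKM equal counts per kilobase divided by DESeq2 size factors and a constant. They were used to compare levels between genes. Genotypes came from the sample titles.

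Counts were filtered with filterByExpr, TMM scaled and fitted with edgeR 4.0.16 (quasi-likelihood, genotype only) in R 4.3.3, with Benjamini-Hochberg adjustment over 13846 genes. CPM use the TMM factors. Totals were 14749669 to 21557468 counts, and the TMM factors ran from 0.5787 in IKO 4 to 1.532 in WT 7. With these factors 1 count was worth from 0.0354 CPM in WT 7 to 0.109 CPM in IKO 4. The steps were tested on simulated data. The 4 members and all lists were chosen with earlier results of these data known. Per list, up to 5 called genes with the largest change were named, or the 2 most abundant, besides regulators and hydrolases. Mice with identical numbers were not treated as pairs in the main fit. Alternatives were DESeq2 1.42.0, RLE, TMM without mitochondrially encoded genes, no filter, 10 counts in every sample, limma 3.58.1 on log2 FPKM with pseudocounts of 1 and 0.1, a replicate block and each mouse left out. Leaving out 3 libraries together and scaling to enterocyte markers were added after seeing the data. Transcript identity stood in for the planned protein identity. Results for some single genes are left out of the text.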

Additional observations from a re-analysis of the deposited data

Results flagged for a closer look

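A library stood apart from the other 6 of its group in 2 of the 10 groups examined over 5 measures of the family, by a gap to its nearest neighbour beyond Dixon's 95% critical value. Chance alone gives about 1 in 20 such groups. Both were in IKO 4, the library with 50.3% of its counts on mitochondrially encoded genes. Its Alpl level of 1.20 CPM was the highest of the IKO mice, with a gap of 0.663 of the range, and rests on 11 counts. Its 4.82 Alppl2 counts per 1000 Alpi counts were also the highest, with a gap of 0.85 of the range, and rest on 11 Alppl2 and 2280 Alpi counts. The part of the mitochondrial share in these values was not tested.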

How the results depend on the processing

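The log2 fold change of Alpi was below 0 in 24 of 24 alternatives, that of Alppl2 in 23 of 23, that of Alpl in 22 of 22 and that of Akp3 in 19 of 22. The members were chosen on this contrast and the alternatives refit the same mice, so agreement in sign is not independent support. For Alpi and Alppl2 the tally includes the scaling to enterocyte markers chosen after seeing the data. The standard errors as reported were 0.37 for Alpi and 0.64 for Alpl. With 1 mouse left out at a time, Alpi ran from -0.60 (without WT 7) to -0.19 (without WT 2), Alppl2 from -2.19 to -1.92, Alpl from -1.18 (without IKO 4) to -0.39 (without WT 4) and Akp3 from -0.70 (without IKO 5) to 0.10 (without WT 7). Alppl2 was at -0.83 with limma on log2(FPKM + 1), where the pseudocount is close to its level. With at least 10 counts in every sample only Alpi of the family could be fitted. Without WT 3, WT 4 and IKO 4 together, Alpi was at -0.41, Alppl2 at -2.26, Alpl at -0.60 and Akp3 at -0.58.

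The 1200 genes called became 2445 with DESeq2, 508 without a filter and 433 without those 3 libraries. With 1 mouse left out they ran from 515 (without IKO 5) to 1371 (without WT 2), with 746 without WT 4, 600 without WT 7, 526 without IKO 1, 728 without IKO 2 and 789 without IKO 7. The cause was not tested, beyond the fewer samples in these fits. The 12 listed genes called became 26 with DESeq2 and 6 without the 3 libraries, and ran from 8 to 18 with 1 mouse left out.

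The labels do not say that the mouse numbers pair the mice. Same-numbered mice deviated together with r from -0.305 to 0.232, where the highest value, for number 2, was also the best match of WT 2. A shared litter, cage or batch was not tested. With the replicate block, 362 genes and 4 listed genes were called, and Alpi was at -0.37, Alppl2 at -2.03, Alpl at -0.79 and Akp3 at -0.12. Counting limits Alppl2, Akp3 and Alpl, where 3 counts are worth 0.106 to 0.328 CPM per library.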
